A study of Mus musculus with 12 samples.

Results

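Peroxiredoxins, superoxide dismutases, catalase and glutaredoxin are antioxidant enzymes that work without selenium, and they are set out here in bone marrow-derived macrophages (BMDMs) that lack or retain selenoproteins. The 10 genes Prdx1 to Prdx6, Sod1, Sod2, Cat and Glrx were chosen by name. A gene was read only from probe sets (sets of short probes on the array) whose annotation holds its symbol alone. This left 7 of the 10 genes, with 20 probe sets, out of 18193 genes read the same way. Prdx2, Prdx3, Prdx4, Sod1, Sod2, Cat and Glrx were measured. The 5 probe sets of Prdx1 are also annotated to the predicted gene Gm21399, so no value could be assigned to Prdx1, and Prdx5 and Prdx6 are not analysed here.

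The cells came from female C57BL/6 mice in which both Trsp alleles, the gene of the selenocysteine tRNA, were floxed. ΔTrspM mice (Trspfl/fl-LysM-Cre+/-) carried in addition Cre driven by the lysozyme M promoter, which is active in macrophages and other myeloid cells, and control mice (Trspfl/fl-LysM-Cre-/-) carried no Cre. Marrow was differentiated with M-CSF for 7 days, and the cultures were stimulated with lipopolysaccharide (LPS), a bacterial ligand of TLR4, for 4 h or left unstimulated. RNA of 3 ΔTrspM LPS, 3 control LPS, 3 ΔTrspM unstimulated and 3 control unstimulated cultures was hybridized to 12 Affymetrix GeneChip mouse arrays, 1 for each culture. The age of the mice and the dose of LPS on the arrays are not given in the sources used here. The labels call the replicates biological but do not say whether they were separate mice, and p-values therefore cover no more than the variation among these arrays, part of which may be technical. Non-myeloid cells in such a culture would keep Trsp, and the deleted gene is not analysed here, which leaves the genotype labels without that check.

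Superoxide, which phagocytes make in bursts, is turned into hydrogen peroxide by superoxide dismutases: SOD1 with copper and zinc mainly in the cytosol, and SOD2 with manganese in the mitochondrial matrix. Hydrogen peroxide is then broken down by catalase in peroxisomes or reduced by peroxiredoxins, which draw electrons from thioredoxin, and by glutathione peroxidases. Thioredoxin reductases and several glutathione peroxidases are selenoproteins, whereas none of the enzymes described here contains selenocysteine. In macrophages SOD2 is a well-known target of NF-κB signalling.

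Given first are the promoters of 4 members. Sod2 is the 1 with a higher mean signal after LPS, and Cat shares a motif with it. Sod1 and Glrx passed a test for a lower signal after LPS in control cells, close to the threshold. In ΔTrspM cells they did not pass on the probe set used for the gene. Each promoter is printed as the 250 bases before the annotated transcription start (RefSeq, GRCm38.p6), 5′ to 3′ along the gene. Capitals mark matches, on either strand, to the kappaB consensus or to TGACNNNGC, the core of the antioxidant response element that NRF2 binds. The kappaB consensus was taken in a broad form, in order GGG, A or G, any base, any base, C or T, C or T, and CC. A narrower form was not searched.
Sod2, chr17:13007589-13007838, plus strand: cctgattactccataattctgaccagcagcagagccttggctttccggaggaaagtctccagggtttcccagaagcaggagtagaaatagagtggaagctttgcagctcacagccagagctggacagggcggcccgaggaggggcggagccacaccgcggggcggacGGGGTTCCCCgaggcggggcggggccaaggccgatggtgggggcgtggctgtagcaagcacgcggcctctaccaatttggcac
Cat, chr2:103485154-103485403, minus strand: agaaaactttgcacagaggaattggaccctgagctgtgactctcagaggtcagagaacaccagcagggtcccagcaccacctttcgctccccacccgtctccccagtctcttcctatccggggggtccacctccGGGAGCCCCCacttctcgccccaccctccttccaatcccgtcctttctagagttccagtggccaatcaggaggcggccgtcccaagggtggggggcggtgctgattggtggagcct
Sod1, chr16:90220512-90220761, plus strand: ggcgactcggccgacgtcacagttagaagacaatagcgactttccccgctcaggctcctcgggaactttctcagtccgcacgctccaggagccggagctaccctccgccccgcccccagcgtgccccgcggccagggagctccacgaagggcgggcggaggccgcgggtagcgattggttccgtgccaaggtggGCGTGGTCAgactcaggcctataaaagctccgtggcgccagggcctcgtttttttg
Glrx, chr13:75839635-75839884, plus strand: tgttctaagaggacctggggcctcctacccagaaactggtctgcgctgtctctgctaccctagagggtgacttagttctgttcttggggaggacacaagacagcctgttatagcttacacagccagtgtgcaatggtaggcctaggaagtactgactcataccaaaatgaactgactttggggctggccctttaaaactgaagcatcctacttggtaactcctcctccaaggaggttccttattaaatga
Of 7 measured members, 2 (Sod2 and Cat) held a match to the kappaB consensus and 1 (Sod1) held TGACNNNGC, and no match of one motif overlapped a match of the other. In the same window, 7.25% of 32851 promoters held the kappaB consensus and 10.2% held TGACNNNGC. The matches in Sod2 and Cat each read as the consensus on both strands at 1 place, which begins 83 bases before the start in Sod2 and 116 bases before it in Cat. Sod2 and Cat, which share this match, had opposite directions of difference after LPS. The window of Glrx held neither motif. A match describes letters in the window and not a bound factor.

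All values are log2 signals after quantile normalization, with 16 added to the signal before the logarithm, so a difference of 1 is close to a doubling of the signal for a bright gene and more than that for a dim one, whose fold change is understated. Tests used limma with Benjamini-Hochberg adjustment over all 18193 genes and a threshold of 0.05, and a gene is said to rise or fall only if it passed. Mean deposited signals were 199.7 to 675.3 on the ΔTrspM LPS arrays, 492.1 to 860.9 on the control LPS arrays, 575 to 846.6 on the ΔTrspM unstimulated arrays and 733.8 to 770.6 on the control unstimulated arrays. The second ΔTrspM LPS array was the dimmest, with 47.7% of probe sets under a signal of 16, against 16.1 to 28.8% on the other arrays. All 6 cytokine and enzyme genes used to check the stimulus (Tnf, Il1b, Il6, Il12b, Nos2 and Ptgs2) rose with LPS in both genotypes, by log2 differences of 3.57 to 8.22 in ΔTrspM cells and 3.93 to 7.38 in control cells. The 8 macrophage markers summed to log2 signals of 15.95 to 16.12 in ΔTrspM cells and 15.94 to 16.18 in control cells. The 10 stromal markers summed to 10.41 to 13.42 in ΔTrspM cells and 9.63 to 13.02 in control cells. The 7 neutrophil markers summed to 12.22 to 14.24 in ΔTrspM cells and 12.65 to 14.13 in control cells, and the 3 lymphoid markers to 6.77 to 7.46 in ΔTrspM cells and 6.77 to 7.33 in control cells. In bulk RNA, a change in the share of a cell type and a change in RNA per cell cannot be told apart.

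After LPS, Sod2 was the 1 measured enzyme whose mean signal was higher, and the other 6 had lower means in both genotypes. On the probe set used for the gene, Sod2 was 2.61-fold higher after LPS in ΔTrspM cells and 2.5-fold higher in control cells, whereas Sod1, Glrx, Cat, Prdx2, Prdx3 and Prdx4 stood at 0.676 to 0.918 of their unstimulated signal in ΔTrspM cells and at 0.612 to 0.84 in control cells. In ΔTrspM cells, 0 of 7 members passed the test, against 15.8% of all genes, and 2 members had an unadjusted p under 0.05, against 28.5% of all genes. In control cells, 2 of 7 members passed, both lower (Sod1 and Glrx), against 15.6% of all genes either way and 8.54% of all genes lower, and 4 members had an unadjusted p under 0.05, against 28.1% of all genes. The median log2 difference of the members was -0.38 in ΔTrspM cells and -0.45 in control cells, and over all genes it was -0.0325 and -0.0481. The methods' t-test was given the same Benjamini-Hochberg adjustment here, which the methods do not state. So adjusted, it called 0 of 7 members in either genotype, against 7.56% of all genes in ΔTrspM cells and 4.53% in control cells.

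**Figure D1:**
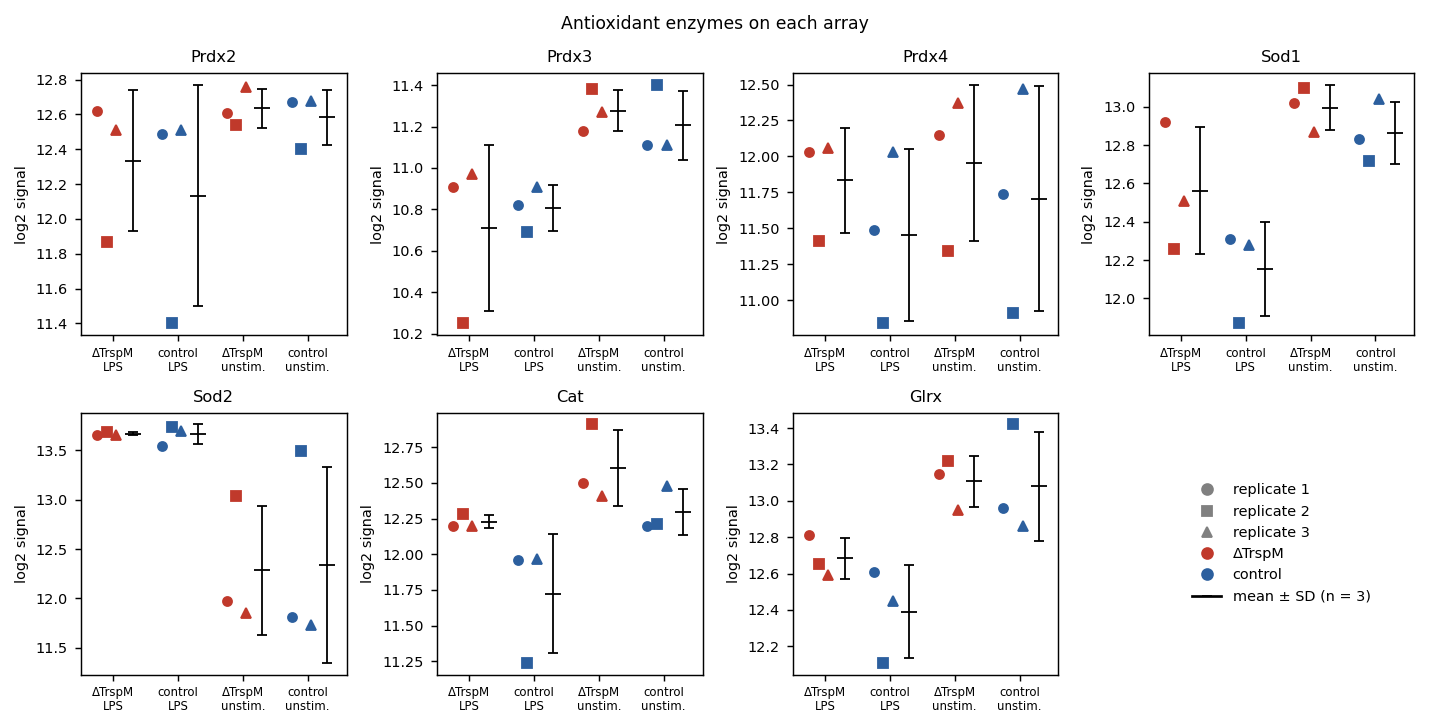
Log2 signal (vertical axis) of the 7 measured enzymes on each of the 12 arrays, by group, with a marker shape for each replicate number and the mean ± SD of 3 arrays beside the points. Sod2 is higher on every LPS array than on any unstimulated array of its genotype, and replicate 2 stands high for Sod2 among the unstimulated arrays of both genotypes and low for Prdx4 in all 4 groups.

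Sod2 encodes the manganese superoxide dismutase of mitochondria. Its log2 signals after LPS were 13.66, 13.69 and 13.66 in ΔTrspM cells, against 11.97, 13.04 and 11.85 in unstimulated ΔTrspM cells. In control cells they were 13.55, 13.74 and 13.7 after LPS, against 11.81, 13.49 and 11.73 unstimulated. The LPS arrays lay close together in both genotypes, the groups did not overlap, and the second unstimulated culture of each genotype was already high. The log2 difference was 1.38 (SE 0.44, adjusted p = 0.0545) in ΔTrspM cells and 1.32 (SE 0.44, adjusted p = 0.0664) in control cells, so neither passed by limma over all genes. Groups that do not overlap with LPS higher were found for 14.8% of all genes in ΔTrspM cells and 14.7% in control cells.

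Of 26 alternatives, 14 in ΔTrspM and 19 in control cells left Sod2 short of the threshold. Over these fits the adjusted p went up to 0.174 and 0.271, and the log2 difference down to 1.05 and 1.01. Leaving out the second unstimulated culture moved the size and the call of the Sod2 response. Without the second unstimulated ΔTrspM array, the log2 difference in ΔTrspM cells was 1.76 (adjusted p = 0.0297), and without the second unstimulated control array that in control cells was 1.89 (adjusted p = 0.00307). With replicate 2 left out of all 4 groups, an alternative chosen after seeing the data, it was 1.75 (adjusted p = 0.00249) in ΔTrspM cells and 1.85 (adjusted p = 0.00167) in control cells. A fit that also held the replicate number as a block passed in both genotypes, at an adjusted p of 0.0189 in ΔTrspM and 0.0234 in control cells. The same 2 cultures also had the highest unstimulated signal of Tnf, which was 10.87 in the second ΔTrspM culture against 9.93 and 10.15 in the others, and 10.9 in the second control culture against 9.02 and 9.63. Il1b stood at 7.93 in the second unstimulated ΔTrspM culture against 7.11 and 7.15, and at 10.3 in the second control culture against 8.11 and 7.09. Il6 was highest there as well, at 6.49 in the ΔTrspM and 7.4 in the control culture. Not all check genes followed. Ptgs2 was lowest in the second ΔTrspM culture, at 9.11 against 10.05 and 9.68, and stood at 8.96 against 8.91 and 8.46 in control cells. Il12b stood at 5.94 against 5.75 and 6.09 in ΔTrspM cells and at 7.22 against 5.66 and 5.32 in control cells. Nos2, at 4.28 to 4.58, was highest in neither. The part of this difference between cultures in the Sod2 values was not tested.

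All 4 probe sets of Sod2 had higher signals on every LPS array than on any unstimulated array of the same genotype. The share of all probe sets so placed was not counted, and the 4 sets read the same gene in the same RNA. Of the 4, 3 passed in ΔTrspM cells and 2 in control cells when p-values were adjusted over all 45037 probe sets. Of all probe sets, 5.36% in ΔTrspM and 5.44% in control cells were called higher. Probe set 1417194_at had 8.91, 10.39 and 9.03 after LPS in ΔTrspM cells, against 5.76, 7.04 and 6.06 unstimulated. In control cells it had 9.51, 10.82 and 9.4 after LPS, against 6.05, 8.28 and 4.39. This is the dimmest of the 4 sets and the one with the widest gap, with log2 differences of 3.16 (SE 0.82, adjusted p = 0.0307) in ΔTrspM cells and 3.67 (SE 0.82, adjusted p = 0.0144) in control cells. Probe set 1454976_at differed by 2.44 in both genotypes (SE 0.62; adjusted p = 0.0279 in ΔTrspM and 0.0269 in control cells). Probe set 1417193_at differed by 1.63 (SE 0.46, adjusted p = 0.0425) in ΔTrspM cells and by 1.36 (SE 0.46, adjusted p = 0.0853, or 0.0195 with the block) in control cells. On 1417194_at the unstimulated control values spread widely, the lowest lying near the floor of 4 that the added 16 sets. Its difference in control cells was 4.69 without the second and 2.74 without the third unstimulated control array. In ΔTrspM cells it was 1.96 with no scaling. Over the 4 sets the log2 difference thus went from 1.38 to 3.16 in ΔTrspM cells and from 1.32 to 3.67 in control cells, with the upper ends uncertain. Without the second unstimulated array of the same genotype, 1454976_at differed by 2.97 in ΔTrspM and 3.24 in control cells and 1417193_at by 2 in ΔTrspM and 1.96 in control cells. Left-out arrays moved these calls: each of the 3 further sets missed the threshold in at least one genotype when 1 of the arrays compared was left out, with adjusted p up to 0.142, and kept its direction.

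**Figure D2:**
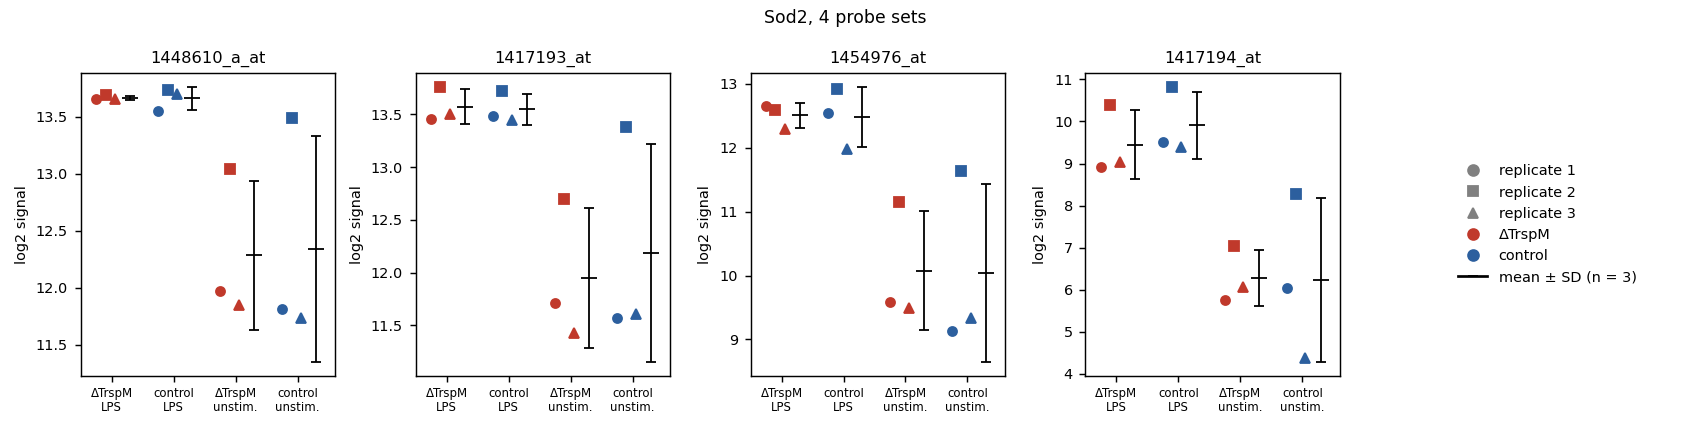
Log2 signal (vertical axis) of Sod2 on its 4 probe sets by group, with a marker shape for each replicate number and mean ± SD of 3 arrays. On each set the LPS arrays lie above the unstimulated arrays of their genotype, and the second replicate is the highest unstimulated array in both genotypes.

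Sod1 encodes the copper-zinc superoxide dismutase. Its log2 signals after LPS were 12.92, 12.26 and 12.51 in ΔTrspM cells, against 13.02, 13.1 and 12.87 unstimulated, and these groups overlapped at the first LPS culture. In control cells they were 12.31, 11.87 and 12.28 after LPS, against 12.83, 12.72 and 13.04 unstimulated, with no overlap. Sod1 fell in control cells, by 0.71 on the log2 scale (SE 0.22, adjusted p = 0.0471), and the log2 difference in ΔTrspM cells was -0.43 (SE 0.22, adjusted p = 0.222). The 2 responses were not shown to differ (interaction 0.28, SE 0.3, 95% interval -0.39 to 0.95, adjusted p = 1). The call in control cells lay close to the threshold and was lost in 18 of 26 alternatives, among them the values with no scaling (adjusted p = 0.632) and arrays centred on their medians, where the difference was -0.41 (adjusted p = 0.487). It was also lost without any 1 of the control arrays, at an adjusted p of 0.0638 to 0.16.

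The 5 probe sets of Sod1 did not move alike. On 1451124_at, which is the second brightest, the signals after LPS were 12.38, 12.34 and 11.93 in ΔTrspM cells and 11.41, 11.41 and 10.95 in control cells, against 12.2, 12.01 and 11.64 in unstimulated ΔTrspM cells and 11.8, 11.85 and 12.18 in unstimulated control cells. Every ΔTrspM culture was thus higher after LPS than its same-numbered unstimulated culture and every control culture was lower. The LPS difference was 0.26 (SE 0.24, adjusted p = 0.563) in ΔTrspM cells and -0.68 (SE 0.24, adjusted p = 0.0963) in control cells, and their difference was 0.95 (SE 0.34, unadjusted p = 0.0162, adjusted p = 1). After LPS this probe set was 1.94-fold higher in ΔTrspM than in control cells, without overlap (log2 difference 0.96, SE 0.24, unadjusted p = 0.00188, adjusted p = 0.539 over all probe sets). Probe set 1435304_at fell with LPS in ΔTrspM cells, by 0.74 on the log2 scale (SE 0.19, adjusted p = 0.0289, where 5.62% of all probe sets were called lower), and differed by -0.38 (SE 0.19, adjusted p = 0.255) in control cells. Its call was lost without any 1 of 5 of the 6 ΔTrspM arrays, at an adjusted p of 0.0626 to 0.105, and with replicate 2 left out of all groups (0.171). The remaining sets differed by -1.84 and -1.46 (1440222_at) and by -0.06 and 0.11 (1447761_x_at) in ΔTrspM and control cells, and none of these passed.

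**Figure D3:**
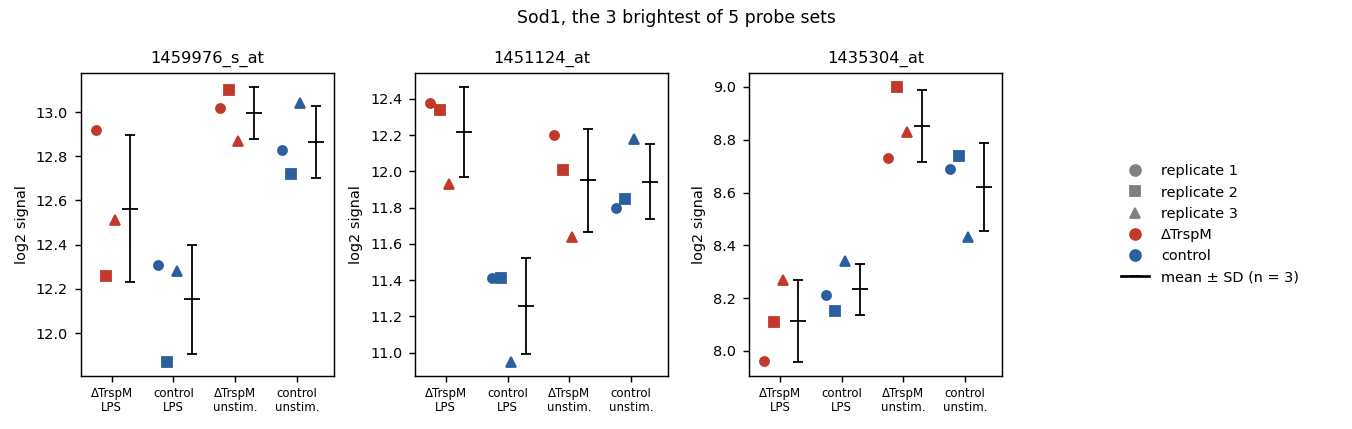
Log2 signal (vertical axis) of Sod1 on its 3 brightest probe sets by group, with a marker shape for each replicate number and mean ± SD of 3 arrays. On 1459976_s_at and 1435304_at the LPS means lie below the unstimulated means in both genotypes, whereas on 1451124_at the ΔTrspM mean lies above and the control mean below.

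Catalase breaks hydrogen peroxide down to water and oxygen. After LPS the log2 signals of Cat were 12.2, 12.28 and 12.2 in ΔTrspM cells, against 12.5, 12.91 and 12.41 unstimulated. In control cells they were 11.96, 11.24 and 11.97 after LPS, against 12.2, 12.21 and 12.48 unstimulated. All LPS cultures were below all unstimulated cultures of the same genotype, but the log2 differences of -0.38 (SE 0.23, adjusted p = 0.324) in ΔTrspM cells and -0.58 (SE 0.23, adjusted p = 0.128) in control cells did not pass. The second control LPS culture was the lowest, and without it the difference in control cells was -0.34. The other probe set of Cat, 1416430_at, differed by -0.53 in ΔTrspM and -0.44 in control cells.

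Glrx encodes glutaredoxin 1, which uses glutathione to remove glutathione from modified cysteines of proteins. Its log2 signals after LPS were 12.81, 12.65 and 12.59 in ΔTrspM cells, against 13.15, 13.22 and 12.95 unstimulated. In control cells they were 12.61, 12.11 and 12.45 after LPS, against 12.96, 13.42 and 12.86 unstimulated. The LPS cultures were the lower ones in both genotypes, without overlap. Glrx fell in control cells, by 0.69 on the log2 scale (SE 0.21, adjusted p = 0.0467), and differed by -0.42 (SE 0.21, adjusted p = 0.214) in ΔTrspM cells. The interaction was 0.27 (SE 0.3, 95% interval -0.38 to 0.92, adjusted p = 1), so the 2 responses were not shown to differ. The call was lost in 22 of 26 alternatives, including each left-out array of any group (adjusted p 0.0519 to 0.159), and with replicate 2 left out of all groups the difference was -0.38 (adjusted p = 0.304). On its other probe set, 1416593_at, the differences were -0.63 in ΔTrspM and -0.64 in control cells, and neither passed over all probe sets (adjusted p = 0.164 and 0.158).

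Prdx3, the peroxiredoxin of mitochondria, had log2 signals after LPS of 10.91, 10.25 and 10.97 in ΔTrspM cells, against 11.18, 11.38 and 11.27 unstimulated. In control cells it had 10.82, 10.69 and 10.91 after LPS, against 11.11, 11.4 and 11.11 unstimulated. The groups did not overlap in either genotype, and the differences of -0.57 (SE 0.22, adjusted p = 0.106) in ΔTrspM cells and -0.4 (SE 0.22, adjusted p = 0.255) in control cells did not pass. The lowest value came from the second ΔTrspM LPS array, the dimmest of the 12, and without it the difference in ΔTrspM cells was -0.34. Together with Cat, Glrx and Sod1, this made 4 of 7 members lower after LPS without overlap in control cells, against 19.4% of all genes. In ΔTrspM cells 3 of 7 members (Prdx3, Cat and Glrx) were so placed, against 19.5% of all genes.

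Prdx2, a cytosolic peroxiredoxin that is also abundant in red blood cells, had log2 signals after LPS of 12.62, 11.87 and 12.51 in ΔTrspM cells, against 12.61, 12.54 and 12.76 unstimulated. In control cells it had 12.49, 11.4 and 12.51 after LPS, against 12.67, 12.4 and 12.68 unstimulated. Only the second LPS culture of each genotype was clearly lower. Without it, the difference was -0.07 in ΔTrspM and -0.08 in control cells, against -0.3 (SE 0.31) and -0.45 (SE 0.31) with all arrays. Of the 5 erythroid markers measured, 3 had a higher mean after LPS in each genotype. Of all genes, 47.8% had one in ΔTrspM and 46.5% in control cells. Klf1 had means of 6.82 after LPS and 5.33 unstimulated in ΔTrspM cells, and 5.17 and 5.94 in control cells. Hba-a1, an alpha-globin gene, fell with LPS in both genotypes. The fall by limma on the log2 scale was 0.86 (adjusted p = 0.025) in ΔTrspM and 0.85 (adjusted p = 0.0268) in control cells. Its levels of 4.52 to 5.82 lay near the floor of 4 that the added 16 sets. The 5 markers summed to 7.83 to 8.27 after LPS in ΔTrspM cells, against 7.4 to 7.89 unstimulated. In control cells the sum was 6.88 to 7.66 after LPS, against 7.28 to 7.72. These sums include the 16 added to each marker. The part of red cell RNA in the Prdx2 values was not tested.

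Prdx4, the peroxiredoxin of the endoplasmic reticulum, followed the replicate number rather than genotype or stimulus. In ΔTrspM cells its log2 signals were 12.03, 11.41 and 12.06 after LPS, against 12.15, 11.34 and 12.37 unstimulated. In control cells they were 11.49, 10.84 and 12.03 after LPS, against 11.74, 10.91 and 12.47 unstimulated. Replicate 2 was the lowest and replicate 3 the highest in all 4 groups. The LPS differences of -0.12 (SE 0.43) in ΔTrspM and -0.25 (SE 0.43) in control cells were smaller than the spread between replicates (SD 0.37 to 0.78). Of the 10 stromal markers measured, which include several collagens, 7 were lowest in replicate 2 in ΔTrspM LPS cultures and 8 in control LPS cultures. In unstimulated cultures these counts were 8 in ΔTrspM and 7 in control cells. The share of all genes lowest in replicate 2 was not counted, so the counts do not set these markers apart from other genes. The summed level of the 10 markers in replicate 2 was 11.81 against 12.75 and 13.42 in ΔTrspM LPS cultures and 12.31 against 12.27 and 12.44 in control LPS cultures. It was 10.41 against 12.59 and 13.21 in unstimulated ΔTrspM cultures and 9.63 against 11.8 and 13.02 in unstimulated control cultures. The sum after LPS in control cells is carried by Pdgfrb, a receptor for platelet-derived growth factor, which was at 11.95 in replicate 2 against 11.02 and 11.06, and which rose with LPS. The part of stromal RNA in the Prdx4 values was not tested. Its 3 other probe sets (1416166_a_at, 1435731_x_at and 1431269_at) gave LPS differences of -0.23 to 0.46 in ΔTrspM cells and -0.11 to 0.71 in control cells, none past the test.

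**Figure D4:**
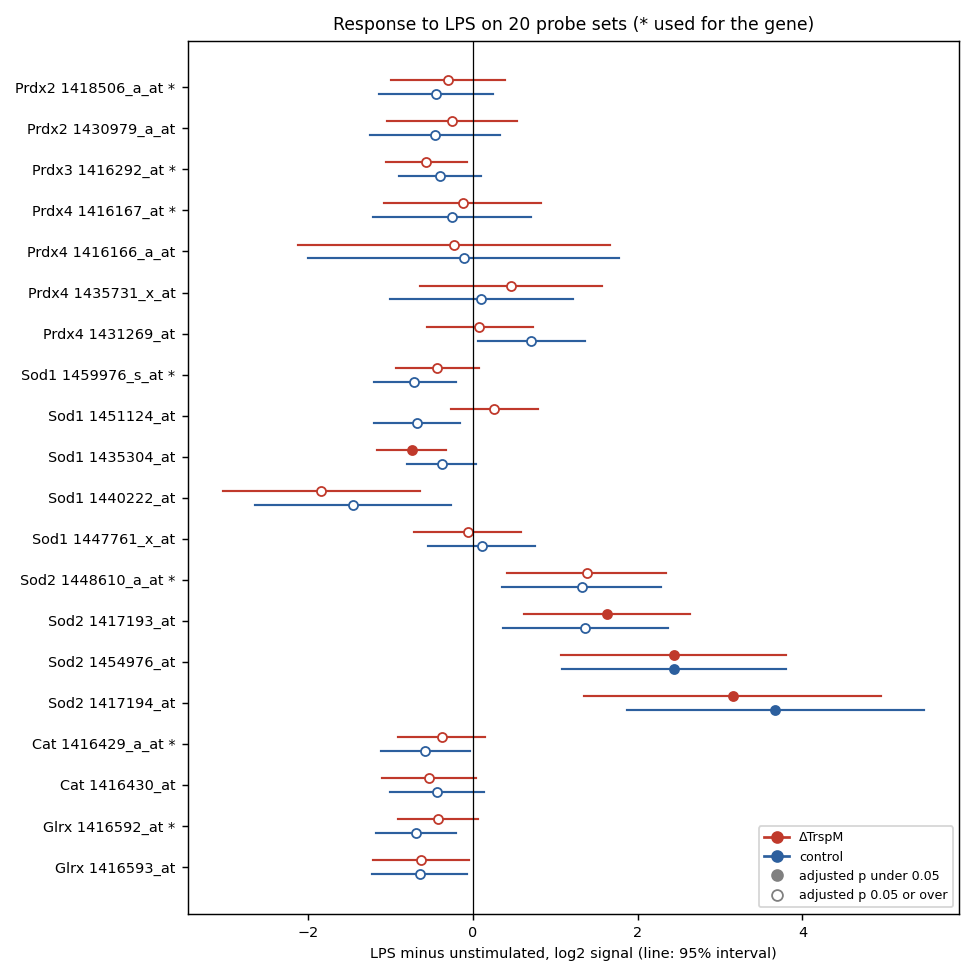
LPS minus unstimulated log2 signal (horizontal axis) on each of the 20 probe sets in ΔTrspM (upper point of each pair) and control cells, with 95% intervals and filled points for an adjusted p under 0.05 over all probe sets. The 4 Sod2 sets lie above 0 in both genotypes, and most sets of Prdx2, Prdx3, Sod1, Cat and Glrx lie below 0 with intervals that reach or nearly reach it.

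The comparison of ΔTrspM with control cells asked whether these enzymes differed when selenoproteins were lacking. In unstimulated cells, 0 of 7 members passed, against 0% of all genes, with log2 differences of -0.06 to 0.31. After LPS, 0 of 7 passed, against 0.011% of all genes, with differences of -0.09 to 0.51. Averaged over both stimuli, 0 of 7 passed, against 0.022% of all genes, and the differences between the genotypes after LPS and without it (interaction) gave 0 of 7, against 0% of all genes. At an unadjusted p under 0.05, limma found 0 of 7 members in unstimulated cells, 0 after LPS, 1 (Cat) averaged over both stimuli and 0 for the interaction, among 435, 1051, 887 and 555 of all genes. The methods' t-test, after adjustment, called 0 members in unstimulated cells and 0 after LPS. The authors chose genes that differed between the genotypes at p under 0.01, with no adjustment stated. Counts of members by that rule are not given here. The median difference of the members was 0.07 unstimulated and 0.29 after LPS, and that of all genes was 0.0354 and 0.0437.

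On the probe set used for each gene, Cat had the lowest unadjusted p after LPS, while among all 20 probe sets 1451124_at of Sod1, described above, had a lower one (0.00188). After LPS, the log2 signals of Cat were 12.2, 12.28 and 12.2 in ΔTrspM cells, against 11.96, 11.24 and 11.97 in control cells. Unstimulated they were 12.5, 12.91 and 12.41 in ΔTrspM cells, against 12.2, 12.21 and 12.48 in control cells. The groups did not overlap after LPS, as was the case with ΔTrspM higher for 5.37% of all genes, and overlapped without LPS. The log2 difference was 0.51 after LPS (SE 0.23, 95% interval -0.01 to 1.02, adjusted p = 0.86) and 0.31 without LPS (SE 0.23, 95% interval -0.2 to 0.82, adjusted p = 1). Averaged over both stimuli it was 0.41 (SE 0.16, 95% interval 0.05 to 0.77, unadjusted p = 0.0305, adjusted p = 0.963). The second control LPS array set much of this: without it the difference after LPS was 0.27. On 1416430_at, the other set of Cat, it was 0.26 (SE 0.26) after LPS, with overlap. Its signals were 11.64, 12.58 and 11.82 in ΔTrspM cells, against 11.68, 11.76 and 11.82 in control cells. Only the second ΔTrspM LPS culture, on the dimmest array, stood above its same-numbered control culture. Without LPS the difference on this set was 0.35 (SE 0.26), and there the groups did not overlap. With no scaling the sign on the set used for the gene turned after LPS (-0.3). The median of all genes then stood at -0.6, so that Cat lay 0.3 above that median.

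The means of Sod2 in the 2 genotypes lay within its spread, at 13.67 ± 0.02 in ΔTrspM and 13.66 ± 0.1 in control cells after LPS and 12.29 ± 0.65 in ΔTrspM and 12.34 ± 0.99 in control cells without LPS (SD, n = 3). The 95% intervals of the genotype difference ran from -0.96 to 0.97 after LPS and from -1.02 to 0.91 without it. Sod1 differed by 0.41 after LPS (95% interval -0.06 to 0.88) and 0.13 without LPS (-0.34 to 0.6), Glrx by 0.29 (-0.17 to 0.75) and 0.03 (-0.43 to 0.49), Prdx4 by 0.38 (-0.58 to 1.33) and 0.25 (-0.7 to 1.2), Prdx2 by 0.2 (-0.47 to 0.88) and 0.05 (-0.62 to 0.73), and Prdx3 by -0.09 (-0.57 to 0.38) and 0.07 (-0.4 to 0.54). With no scaling the median of all genes after LPS stood at -0.6, and relative to it Sod1 lay at 0.21, Glrx at 0.15, Prdx4 at 0.07, Sod2 at 0.25, Prdx2 at -0.02 and Prdx3 at -0.49. Interaction values of the members ranged from -0.16 to 0.28. After LPS, 8 of 10 stromal markers were higher in mean in ΔTrspM than in control cells, against 55.3% of all genes. The median log2 difference was 0.72, with Col1a1 at 1.41, Col1a2 at 1.19 and Col3a1 at 1.18. In the other direction, Pdgfrb differed by -0.67, and Pdgfra had means of 6.39 in ΔTrspM and 6.57 in control cells. Without LPS 8 of 10 were higher in mean (median 0.5), against 56.5% of all genes. Of the 10, 0 passed at either stimulus. Their summed level was 11.81 to 13.42 in ΔTrspM and 12.27 to 12.44 in control cells after LPS, and 10.41 to 13.21 in ΔTrspM and 9.63 to 13.02 in control cells without LPS. Their part in the genotype differences of the enzymes was not tested.

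**Figure D5:**
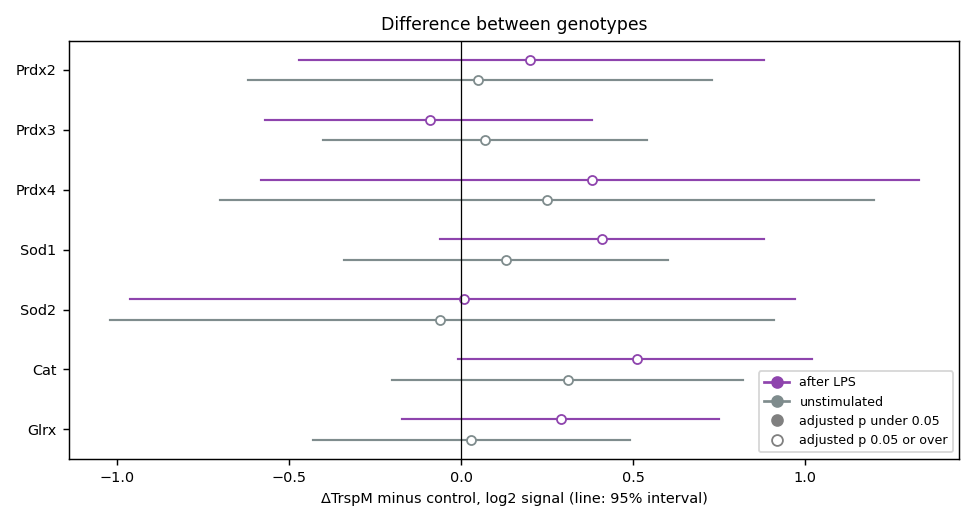
ΔTrspM minus control log2 signal (horizontal axis) of the 7 enzymes after LPS (upper point of each pair) and unstimulated, with 95% intervals and open points for an adjusted p of 0.05 or over. All points are open, and the largest difference is that of Cat after LPS, at 0.51.

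Among the partners of the peroxiredoxins, 10 genes of the thioredoxin system and its regulators were measured. With LPS, 0 rose and 2 fell in ΔTrspM cells, and 0 rose and 1 fell in control cells. Of all genes, 15.8% in ΔTrspM and 15.6% in control cells were called either way. Sesn1, a sestrin known as a regulator of stress responses and of mTORC1, fell to 6.74 ± 0.97 after LPS in ΔTrspM cells, against 11.1 ± 0.06 unstimulated, and to 7.16 ± 0.33 in control cells, against 11.45 ± 0.48 (SD, n = 3). These are log2 differences of -4.35 (SE 0.42, adjusted p = 7.94e-05) and -4.29 (SE 0.42, adjusted p = 7.12e-05), which exceeded those of all 7 enzymes in size. Txnip, which binds and inhibits thioredoxin, fell in ΔTrspM cells by 1.25 (SE 0.36, adjusted p = 0.035), and its difference was -1.05 (SE 0.36, adjusted p = 0.0716, or 0.0108 with replicate blocks) in control cells. The call in ΔTrspM cells was lost in 10 of 26 alternatives, at an adjusted p of up to 0.127, which came without the second unstimulated ΔTrspM array. Thioredoxin itself (Txn1) differed by -0.01 and 0.23 and the selenoenzyme thioredoxin reductase 1 (Txnrd1) by 0.2 and 0.26 in ΔTrspM and control cells, and none of these passed. Srxn1, the sulfiredoxin that restores overoxidized peroxiredoxins, differed between ΔTrspM and control cells by 0.68 (SE 0.4, adjusted p = 0.917) after LPS and 0.36 (SE 0.4, adjusted p = 1) without it, with the ΔTrspM culture higher than the same-numbered control culture in 3 of 3 pairs each time. The groups overlapped each time, and the share of all genes with such pairs was not counted. Srxn1 differed with LPS by -0.25 in ΔTrspM and -0.57 in control cells. No gene of this list passed a test between the genotypes.

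Of 8 genes for glutathione supply and the other glutaredoxins, 1 rose and 0 fell with LPS in ΔTrspM cells. In control cells 1 rose and 1 fell. The share of all genes called either way was 15.8% in ΔTrspM and 15.6% in control cells. Slc7a11, the light chain of the cystine importer that feeds glutathione synthesis, rose to 12.12 ± 0.48 after LPS in ΔTrspM cells, against 8.52 ± 0.87 unstimulated, and to 12.06 ± 0.57 in control cells, against 8.32 ± 1.53 (SD, n = 3). The log2 differences were 3.6 (SE 0.68, adjusted p = 0.00459) and 3.74 (SE 0.68, adjusted p = 0.00348). Glrx5, a mitochondrial glutaredoxin of iron-sulfur cluster assembly, fell in control cells by 1.02 (SE 0.27, adjusted p = 0.0269), with -0.88 (SE 0.27, adjusted p = 0.0517, or 0.0315 with replicate blocks) in ΔTrspM cells. The call in control cells was lost in 10 of 26 alternatives, among them no scaling (adjusted p = 0.416) and the second control LPS array left out (0.098). Between the genotypes none of the 8 passed, with median differences of 0.31 after LPS and 0.22 without it.

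Among all genes, LPS calls either way made up 15.8% in ΔTrspM and 15.6% in control cells. Of 7 further superoxide and peroxide enzymes, 1 rose and 0 fell with LPS in each genotype. This was Sod3, the extracellular superoxide dismutase, with 7.62 ± 0.47 after LPS in ΔTrspM cells, against 5.75 ± 1.18 unstimulated, and 6.43 ± 0.22 in control cells, against 4.69 ± 0.06 (SD, n = 3). The differences were 1.88 (SE 0.47, adjusted p = 0.02) and 1.74 (SE 0.47, adjusted p = 0.0278), in part near the pseudocount of 16, which corresponds to a log2 value of 4. The call was lost in 6 of 26 alternatives in ΔTrspM cells and 8 of 26 in control cells, and the difference ranged from 0.83 to 2.53 in ΔTrspM and from 0.87 to 2.72 in control cells. Gpx1, the selenium-dependent glutathione peroxidase of the cytosol, differed by -0.55 (SE 0.27, adjusted p = 0.209) in ΔTrspM and -0.52 (SE 0.27, adjusted p = 0.233) in control cells. None of the 7 passed a test between the genotypes.

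Across the 12 arrays, the log2 signals of Sod1 varied together most with those of Cat (Pearson r = 0.86), Glrx (0.82) and Prdx2 (0.79), and those of Sod2 had negative correlations of -0.67 to -0.45 with the other 6 enzymes. These are descriptions over arrays that share genotype, stimulus and replicate number. Among all genes tested, the patterns most like that of Sod2 were those of Ikbke, an IκB kinase-related kinase, and Ehd1, which takes part in endocytic recycling (r = 0.99 each). Those most like Prdx4 were Ube2c, a ubiquitin-conjugating enzyme of mitosis, and Fanca, a Fanconi anemia DNA repair gene (0.97 each). For the rest they were Qdpr (0.99) and B3glct (0.98) for Prdx2, Ints2 (0.98) and Pus7l (0.97) for Prdx3, Cyb5r1 and Rpn1 (0.97 each) for Sod1, Hspa4 and Vill (0.92 each) for Cat, and Xpo5 (0.98) and Ppp2r1b (0.97) for Glrx.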

How the data were processed

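The authors normalized the Affymetrix arrays in Expression Console and deposited linear signal intensities, 1 for each of 45101 probe sets on each of 12 arrays. How probes were summarized is not stated in the sources read for this work. The overall level of the deposited intensities differed between arrays. They were therefore quantile-normalized without the 64 control probe sets, and log2(intensity + 16) was taken of the remaining 45037. Of these probe sets, 34945 carry 1 gene symbol in the platform annotation, 932 several and 9160 none. A gene was read from its probe set with the highest mean log2 signal (18193 genes). Of the columns with values per sample, 0 were left unused.

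Samples were grouped by the genotype and treatment in the labels. limma 3.58.1 (R 4.3.3) was fitted to the 4 groups together (8 residual degrees of freedom) for LPS minus unstimulated in each genotype, ΔTrspM minus control at each stimulus and averaged, and the interaction, with Benjamini-Hochberg adjustment. The code was tested on simulated data. With 3 arrays on each side an exact test cannot go below p = 0.1, so p-values rest on the pooled spread in limma. The number of arrays limits the precision. After removal of group means, same-numbered arrays of the groups compared correlated at 0.126 to 0.442 in 12 of 12 pairs, all over 0.1, so the numbers were taken to pair the cultures, although no label explains them. A blocked value (6 residual degrees of freedom) stands beside a result whose call it changes.

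The members and gene lists were chosen with earlier results of these data known. Named were all members on every probe set, up to 4 genes a list that passed a test, Gpx1, Txnrd1, Txn1 and Srxn1 in any case, and for each member the 2 genes with the most similar pattern over the arrays. Promoters for 9 of the 10 members came from RefSeq (GRCm38.p6). A planned comparison of protein sequences was not made. Alternatives were no scaling, median centring, pseudocounts of 1 and 64, all probe sets, averaging over the probe sets of each gene, a filter at a mean log2 signal of 6, fits of the compared groups alone, limma's trend and robust options, the methods' t-test, replicate blocks, and each array left out.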

Additional observations from a re-analysis of the deposited data

Results flagged for a closer look

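On 2 of the 20 probe sets of the enzymes, every same-numbered pair of cultures moved one way in one group and the opposite way in the other. On the Sod1 probe set 1451124_at, LPS differences were 0.18, 0.33 and 0.29 in ΔTrspM cells and -0.39, -0.43 and -1.22 in control cells, and the interaction was 0.95 (SE 0.34, unadjusted p = 0.0162). By limma over all probe sets it did not pass (adjusted p = 1). On the Sod1 probe set 1435304_at, ΔTrspM minus control was -0.25, -0.04 and -0.08 after LPS and 0.04, 0.27 and 0.4 without LPS, with an interaction of -0.36 (SE 0.27, unadjusted p = 0.21, adjusted p = 1). The 2 probe sets of the same gene thus pointed in opposite directions, and both were picked out of 40 such comparisons. Groups of 3 arrays were not examined for single outlying arrays.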

How the results depend on the processing

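Over 26 alternatives and 1435 values of named genes and probe sets, 1242 kept direction and side of the threshold, 109 lost a call, 35 gained one and 49 changed sign. The count of members called with LPS in ΔTrspM cells (0) became 1 with median centring, pseudocount 64, averaged probe sets, the filter at 6, the compared groups alone, trend and robust options, the replicate block (also within genotype) and replicate 2 left out of all groups with or without the block, and it was 0 to 1 with single arrays left out. In control cells (2) it was 0 with no scaling, pseudocount 1, all probe sets, the compared groups alone and the methods' t-test, 1 with median centring, the replicate block within genotype and replicate 2 left out with or without the block, and 0 to 1 with single arrays left out. With the replicate block it was 3 in control cells. The counts between genotypes stayed at 0. The cause of these changes was not tested.

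Among all genes, LPS calls in ΔTrspM cells (2874) were 4946 of all probe sets, 1376 by the methods' t-test and 1704 without the first unstimulated ΔTrspM array, and in control cells (2844) they were 893 with no scaling, 4963 of all probe sets and 824 by the methods' t-test. Higher and lower calls in ΔTrspM cells were 1326 and 1548, against 262 and 3063 with no scaling and 1303 and 2648 with median centring. With no scaling, the median of all genes stood at -0.73 (LPS, ΔTrspM cells), -0.25 (LPS, control cells), -0.6 (genotype after LPS) and -0.06 (genotype, unstimulated).

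Signs turned only for differences that had not passed. With no scaling, ΔTrspM minus control after LPS was -0.62 for Prdx2, -0.53 for Prdx4, -0.38 for Sod1, -0.34 for Sod2, -0.3 for Cat (-0.04 averaged over both stimuli), -0.45 for Glrx and -0.11 for Srxn1. Unstimulated, it was -0.03 for Prdx2, -0.04 for Prdx3 and -0.03 for Glrx. LPS in ΔTrspM cells gave -0.22 for Txnrd1. With median centring, values were -0.1 for Prdx2 and -0.02 for Prdx4 (genotype after LPS), 0.02 for Sod2 (genotype, unstimulated) and 0.46 for Txn1 (LPS, ΔTrspM). With averaged probe sets they were 0.05 (ΔTrspM) and 0.11 (control) for Prdx4 with LPS, 0.36 for Txn1 (LPS, ΔTrspM), -0.1 for Sod2 after LPS and -0.13 for Prdx2 unstimulated. With replicate 2 left out, with or without the block, they were 0.1 for Txn1 (LPS, ΔTrspM), 0.08 for Prdx3 after LPS and 0.14 for Sod2 unstimulated.

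With single arrays left out, LPS differences ranged from -0.43 to 0.09 in ΔTrspM and -0.65 to 0.13 in control cells for Prdx4, and in ΔTrspM cells from -0.08 to 0.05 for Txn1 and -0.61 to 0.03 for Srxn1. Genotype differences after LPS ranged from -0.16 to 0.44 for Prdx2, -0.22 to 0.14 for Prdx3 and -0.05 to 0.05 for Sod2. Unstimulated, they ranged from -0.04 to 0.1 for Prdx2, -0.15 to 0.63 for Prdx4, -0.43 to 0.52 for Sod2 and -0.08 to 0.2 for Glrx.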
